A study of Sus scrofa with 6 samples.

Results

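The genes described here are receptors of vascular endothelium, the ligands of one of these receptors, and endothelial regulators that accompany vessel growth: KDR, FLT1, FLT4, TEK, TIE1, ANGPT1, ANGPT2, ENG, ERG and CD34. A probe set was taken for a gene where the array annotation gave it that symbol and no other. By this rule 9 of the 10 genes were found, on 15 of the 23999 probe sets tested, and FLT4 was found on none. The samples were renal medulla from 3 CPB pigs and 3 Sham pigs, all adult female White-Landrace crossbred animals. The CPB animals were anaesthetised and kept on cardiopulmonary bypass for 2.5 hours, with access through the neck. The Sham animals were anaesthetised for 2.5 hours, had the same dissection and received heparin systemically. Both groups therefore shared anaesthesia, surgery of the neck and heparin, and by assignment differed in bypass. Among its baseline characteristics the study also listed a larger fluid requirement in CPB animals, although its text calls crystalloid volume not different. The tissue was taken 24 hours after the intervention from blocks of outer medulla, and every animal contributed 1 Affymetrix porcine array.

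Endothelial cells receive vascular endothelial growth factor (VEGF) through KDR, the main signalling receptor, and FLT1, which binds the ligand tightly and signals weakly. A separate system sets how stable a vessel is. ANGPT1, made largely by cells around the endothelium, activates the receptor TEK (also called TIE2), whereas ANGPT2, released by endothelial cells, can oppose or mimic it, and TIE1 is a relative of TEK that modulates its signal. In the renal medulla these genes mark the vasa recta and the capillary plexus between the tubules, vessels that supply a region with little oxygen to spare.

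The authors deposited RMA intensities, a relative brightness per probe set after the arrays had been brought to one distribution, and log2 was taken before every test. Median intensity per array lay between 94.3 and 96.5. The arrays were less alike in genes of the proximal tubule than in overall brightness. LRP2 encodes megalin, an endocytic receptor of the proximal tubule, a segment of the cortex and the outermost medulla. The LRP2 intensity was 2469 (CPB 1), 169 (CPB 2) and 2740 (CPB 3) in CPB, against 181 (Sham 1), 2390 (Sham 2) and 899 (Sham 3) in Sham, a 16.2-fold range. CPB 2 and Sham 1 were thus low, CPB 1, CPB 3 and Sham 2 high, and Sham 3 between them, so both groups contained low and high arrays. The second LRP2 probe set had the same low and high arrays, and the 15 measured proximal tubule markers, LRP2 among them, moved together: their mean log2 intensity, each gene centred over the 6 arrays, was 1.35, -1.65 and 1.63 in CPB and -2.23, 1.21 and -0.30 in Sham. LRP2 itself did not separate the groups (CPB minus Sham 0.52 on the log2 scale, SE 1.39).

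No measured vessel growth gene passed the test between CPB and Sham. The study called a transcript at a minimum of 1.6-fold and a p under 0.05 without adjustment, and 0 of the 15 probe sets reached this threshold, where 0.304% of all probe sets did. None of the 15 had groups without overlap either, against 5.27% of all probe sets. The genes were not alike in their spread. Values of ANGPT1, ANGPT2, ERG and TEK spread widely across the arrays, whereas those of KDR, FLT1 and CD34 stayed within a narrow band on all arrays. The fitted difference was negative, meaning a lower mean in CPB, for 9 of the 15 probe sets, against 44.1% of all probe sets. Their median difference was -0.091 (log2), and that of all probe sets was 0.027. The median of the 15 was -0.22 without CPB 2, -0.14 without Sham 2 and -0.14 without CPB 1, and -0.061 without Sham 1. The lowest unadjusted p among them was 0.092 with limma, for ANGPT1, and no probe set on the array passed an adjusted p of 0.05 (0 of 23999 with limma, with 336 at an unadjusted p under 0.05, and 0 and 499 with the methods' t-test). With 3 animals against 3 an exact two-sided permutation test cannot give a p below 0.1.

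**Figure D1:**
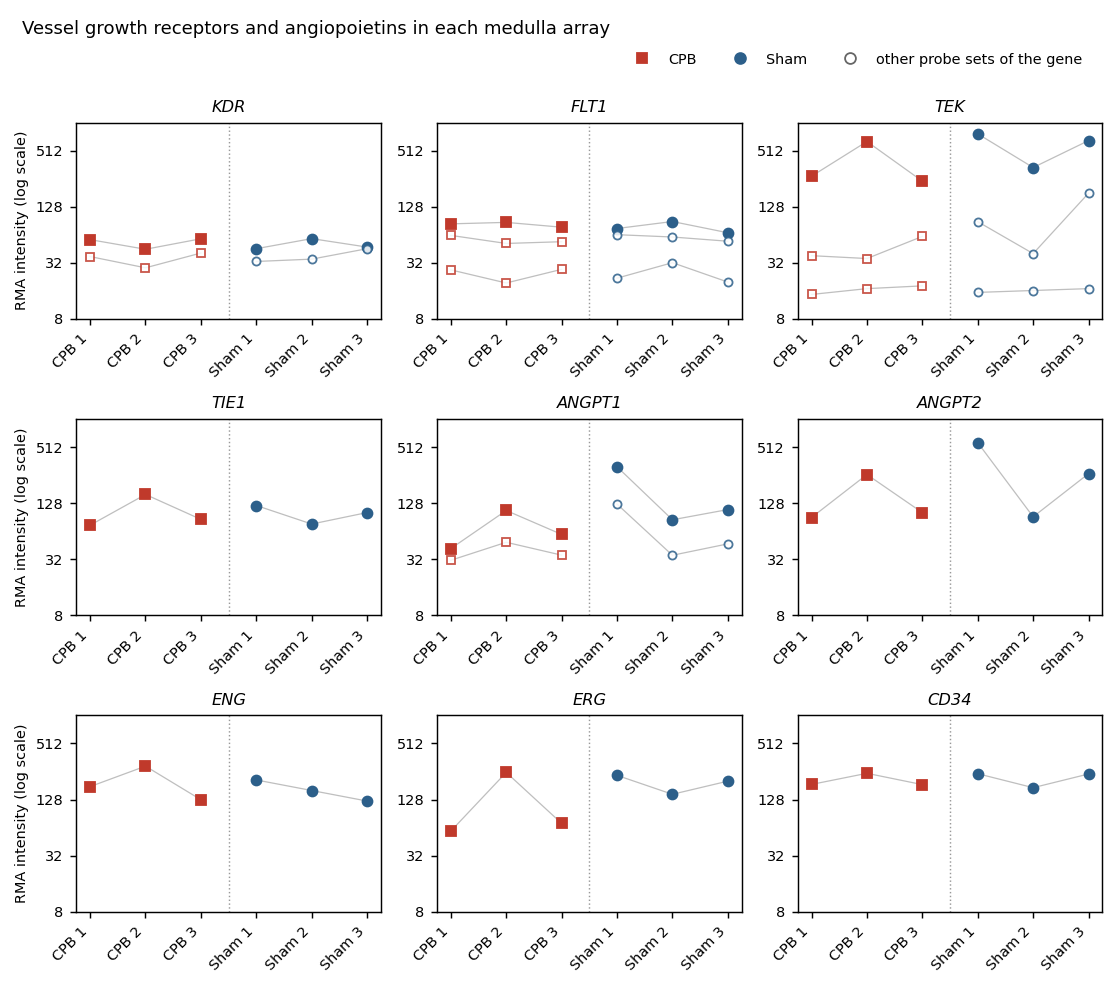
RMA intensity on a log scale for the 9 measured genes on each array, CPB (red squares) left of Sham (blue circles). Filled symbols are the probe set with the highest mean and open symbols the other probe sets of the same gene, and grey lines link values of one probe set within a group. The brighter KDR probe set lies between 44.7 and 58.1 on all 6 arrays, whereas ANGPT2 spans 89.7 to 571.

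Among the VEGF receptors, KDR had an intensity of 56.7, 44.7 and 57.9 in CPB and 45.3, 58.1 and 47.2 in Sham on its brighter probe set (Ssc.15999.1.A1_at). The groups overlapped fully, and the highest array was only 1.30-fold above the lowest. The difference was 0.080 (log2, SE 0.16, 95% CI -0.32 to 0.48, adjusted p = 0.99 with limma), an interval that leaves out a change of 1.6-fold, which is 0.678 on the log2 scale, in either direction. The second KDR probe set was among the dimmest 25% of the array (under 37.8 on average), differed by -0.097 (SE 0.20), and followed the first only loosely over the 6 arrays (r = 0.38). FLT1 had 83.8, 86.9 and 77.1 in CPB and 74.7, 88.7 and 67.2 in Sham on Ssc.16000.1.S1_at. Here CPB values lay within the Sham range, with a difference of 0.11 (SE 0.14, 95% CI -0.23 to 0.45). The other 2 FLT1 probe sets differed by -0.091 (Ssc.3872.1.S1_at, SE 0.13) and 0.0081 (Ssc.16000.1.A1_at, SE 0.24, among the dimmest 25%). Intervals of all 5 VEGF receptor probe sets left out a 1.6-fold change in either direction. None of these probe sets was bright: in mean intensity the brightest of KDR exceeded 31.9% of probe sets and that of FLT1 44.1%. The FLT1 probe sets followed one another only loosely (r = 0.50, 0.43 and 0.10). Narrow intervals on such probe sets can also come from weak detection, which was not tested.

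The Tie receptors carried larger differences between animals. TEK, the angiopoietin receptor, is on 3 probe sets that did not behave alike. The brightest (Ssc.4753.1.A1_at) read 272, 642 and 241 in CPB and 776, 337 and 657 in Sham. CPB 2 was close to Sham 3, and Sham 2 was closer to CPB 1 and CPB 3 than to the other Sham arrays. The groups overlapped, and the difference of -0.68 (SE 0.48, 95% CI -1.85 to 0.49) did not pass. Ssc.15902.1.S1_at read 38.1, 35.5 and 61.4 in CPB and 88.4, 40.1 and 179 in Sham. On this probe set Sham 3 stood highest, 5.03-fold above the lowest array, and the difference was -0.98 (SE 0.55, 95% CI -2.33 to 0.37). The third TEK probe set was among the dimmest 25%, at 14.6 to 18.1 on all arrays. Correlations between the TEK probe sets over the 6 arrays were 0.48 for the brighter pair, 0.23 and -0.067, given as descriptions, so they cannot be read as one level, and which strand or transcript end each reads is not settled here. TIE1 had 74.1, 159 and 85.6 in CPB and 121, 76.3 and 101 in Sham. Its highest and its lowest array were both CPB, and the means lay close together, at 106 ± 45.8 in CPB and 99.4 ± 22.3 in Sham (SD, n = 3 each), a difference of 0.036 (SE 0.33).

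On the brightest probe set of each gene, the angiopoietins varied most between arrays of the 9 genes. ANGPT1, the activating ligand of TEK, read 41.6, 107 and 59.0 in CPB and 315, 84.8 and 109 in Sham (Ssc.16730.1.S1_at), a 7.57-fold range. Sham 1 alone was far above the rest, CPB 1 was lowest, and only CPB 2 among the CPB arrays lay inside the Sham range. Means were 69.1 ± 33.7 in CPB and 169 ± 126 in Sham (SD, n = 3 each), and the difference was -1.16 (SE 0.58, 95% CI -2.57 to 0.26). The second ANGPT1 probe set (Ssc.6943.1.A1_at) read lower, at 31.1, 48.6 and 35.3 in CPB and 125, 35.2 and 46.7 in Sham. Sham 1 was again highest and CPB 1 lowest, but both CPB 2 and CPB 3 lay inside the Sham range. The 2 probe sets correlated at r = 0.96 over the 6 arrays, and the second differed by -0.65 (SE 0.49). ANGPT2, the ligand that can counter ANGPT1, read 89.7, 260 and 101 in CPB and 571, 91.2 and 265 in Sham. Within CPB only CPB 2 was high, within Sham only Sham 2 was low, and the difference of -0.85 had a wide interval (SE 0.74, 95% CI -2.67 to 0.97).

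ENG encodes endoglin, a co-receptor through which endothelial cells sense ligands of the transforming growth factor β family. It read 176, 292 and 127 in CPB and 208, 160 and 123 in Sham, so that the highest array was CPB 2 and the lowest Sham 3, with a difference of 0.23 (SE 0.35, 95% CI -0.62 to 1.07). ERG, an ETS transcription factor that maintains endothelial identity, read 58.6, 250 and 70.9 in CPB and 233, 146 and 202 in Sham. CPB 1 and CPB 3 lay below every Sham array and CPB 2 above every one of them, and the difference was -0.90 (SE 0.57, 95% CI -2.29 to 0.48). CD34, a surface sialomucin of capillary endothelium and of blood progenitors, read 186, 245 and 185 in CPB and 242, 172 and 241 in Sham. These values differed by at most 1.43-fold, and the group difference was -0.083 (SE 0.20, 95% CI -0.56 to 0.40).

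Leaving out single animals changed some of these calls. Without CPB 2 the difference of ERG was -1.56 (unadjusted p = 0.00095 with limma), that of ANGPT1 on Ssc.16730.1.S1_at was -1.53 (unadjusted p = 0.045) and that of TEK on Ssc.4753.1.A1_at was -1.12 (unadjusted p = 0.028). All 3 then reached the threshold, as did 693 probe sets of the 23999 tested, against 73 with all arrays. Without Sham 2, TEK on Ssc.15902.1.S1_at reached it as well, at -1.53 (unadjusted p = 0.014), in a fit where 701 probe sets did. Adjusted p-values of these 4 were 0.53 or above. Without Sham 1 the angiopoietin differences were smaller, at -0.59 and -0.11 for the probe sets of ANGPT1 and -0.23 for ANGPT2, and that of TEK on Ssc.4753.1.A1_at was -0.44. That of ENG was then 0.41. The second ANGPT1 probe set and ANGPT2 did not reach the threshold with any single array left out. CPB 2 had the lowest LRP2 of the CPB arrays and Sham 2 the highest of the Sham arrays.

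**Figure D2:**
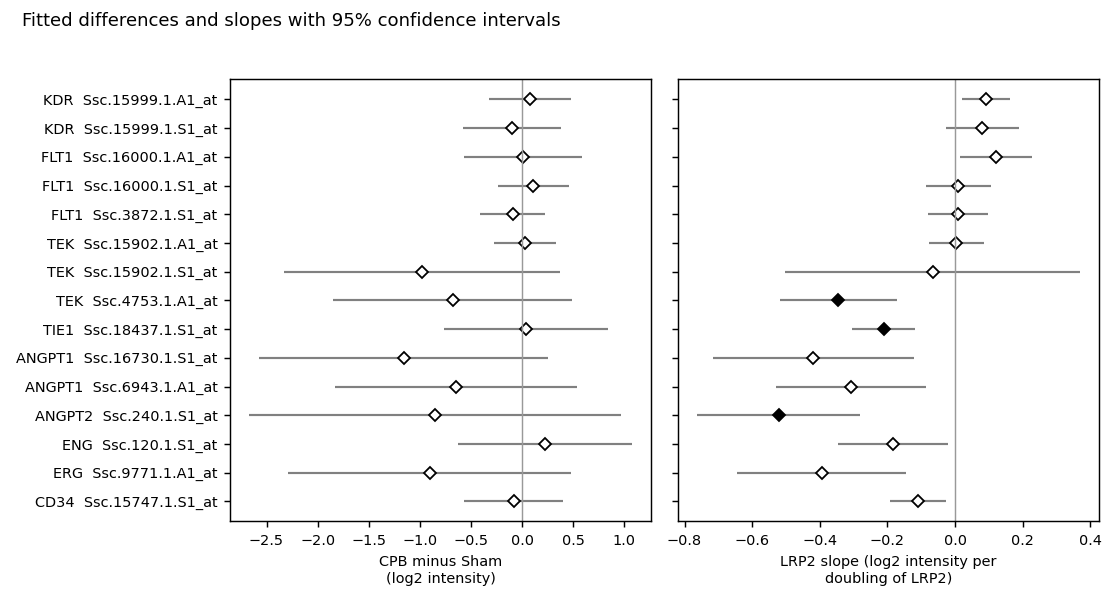
Fitted values with 95% confidence intervals (bars) for the 15 probe sets. The left panel gives CPB minus Sham in log2 intensity, and the right panel the slope on LRP2 in log2 intensity per doubling of LRP2, with filled diamonds where the adjusted p was under 0.05. No filled diamond appears on the left, and 3 appear on the right, for TEK, TIE1 and ANGPT2.

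How the genes followed the zone signal was asked next. A slope of log2 intensity on log2 LRP2 was fitted with limma over the 6 arrays for all probe sets other than those of LRP2, so that a slope of -0.50 means an intensity lower by that much, on the log2 scale, for each doubling of LRP2. Because LRP2 separates the arrays into low, intermediate and high ones, no correlation with LRP2 is given. TEK, TIE1 and ANGPT2 fell with LRP2 at an adjusted p under 0.05, which was 3 of the 15 probe sets, against 6.28% of all probe sets with a negative slope past that limit. None of the 15 passed with a positive slope, against 5.11% of all. At an unadjusted p under 0.05, 8 of the 15, from 7 of the 9 genes, had a negative slope (15.2% of all probe sets) and 2 had a positive one (12.2% of all). The median slope of the 15 was -0.11 and that of all probe sets 0.011, and 9 of the 15 slopes were negative, against 44.4% of all. In a block of tissue a lower share of vessel cells and less of the RNA per vessel cell cannot be told apart.

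The slope of ANGPT2 was the steepest of the 15, at -0.52 (SE 0.10, 95% CI -0.76 to -0.28, adjusted p = 0.023). TEK on its brightest probe set had -0.35 (SE 0.073, 95% CI -0.52 to -0.17, adjusted p = 0.029), while its other 2 probe sets had -0.066 and 0.0034 and did not pass. TIE1 had -0.21 (SE 0.040, 95% CI -0.31 to -0.12, adjusted p = 0.021). For TIE1 the arrays lay in nearly strict order, with CPB 2 and Sham 1 highest and CPB 1 and Sham 2 lowest, in both groups alike. ANGPT1 (-0.42, SE 0.13, adjusted p = 0.081), ERG (-0.39, SE 0.11, adjusted p = 0.059), CD34 (-0.11, SE 0.035, adjusted p = 0.091) and ENG (-0.18, SE 0.069, adjusted p = 0.14) had negative slopes that did not pass. Some of these passed under other settings, of which 14 were fitted for each probe set. ERG passed in 5, ANGPT1 in 3 (Ssc.16730.1.S1_at) and 2 (Ssc.6943.1.A1_at), CD34 in 1 and ENG in 0. Without Sham 1 the ANGPT1 slopes were shallower, at -0.24 and -0.14 (adjusted p = 0.29 and 0.17). With the group as a covariate ANGPT1 on Ssc.16730.1.S1_at (adjusted p = 0.036) and ERG (adjusted p = 0.042) passed, and with the proximal tubule mean in place of LRP2 ERG (adjusted p = 0.037) and both ANGPT1 probe sets (adjusted p = 0.033 and 0.038) did. ERG also passed with the second LRP2 probe set (adjusted p = 0.043), without the dimmest 25% of probe sets (adjusted p = 0.046) and without Sham 3 (adjusted p = 0.038), as did CD34 without Sham 3 (adjusted p = 0.046) and both ANGPT1 probe sets without CPB 2 (adjusted p = 0.032 and 0.014). The VEGF receptors did not share this direction, on probe sets of low or middling brightness. KDR had 0.092 (SE 0.029, 95% CI 0.022 to 0.16, adjusted p = 0.096), and FLT1 had 0.0092 (SE 0.040) on its brightest probe set and 0.12 (SE 0.044, adjusted p = 0.13) on its dimmest. None of the positive slopes passed.

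These calls rested on few arrays. With 1 array left out the call of TEK was lost for every array but Sham 3 (adjusted p 0.061 to 0.11, without Sham 1 0.11). That of TIE1 was lost without CPB 1, CPB 2, CPB 3 or Sham 2 (0.055 to 0.085), and that of ANGPT2 without CPB 1, CPB 3, Sham 1 or Sham 2 (0.068 to 0.095). The slopes stayed negative in all these fits. With the low arrays CPB 2 and Sham 1 both removed, a setting chosen after the data had been seen, the slopes were -0.98 for ANGPT2 (adjusted p = 0.019), -0.84 for TEK (adjusted p = 0.023) and -0.23 for TIE1 (adjusted p = 0.24). Log2 LRP2 was then 11.3, 11.4 and 11.2 in CPB 1, CPB 3 and Sham 2, and 9.81 in Sham 3. These slopes therefore set Sham 3 alone against the rest, and a graded relation to LRP2 cannot be read from them.

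**Figure D3:**
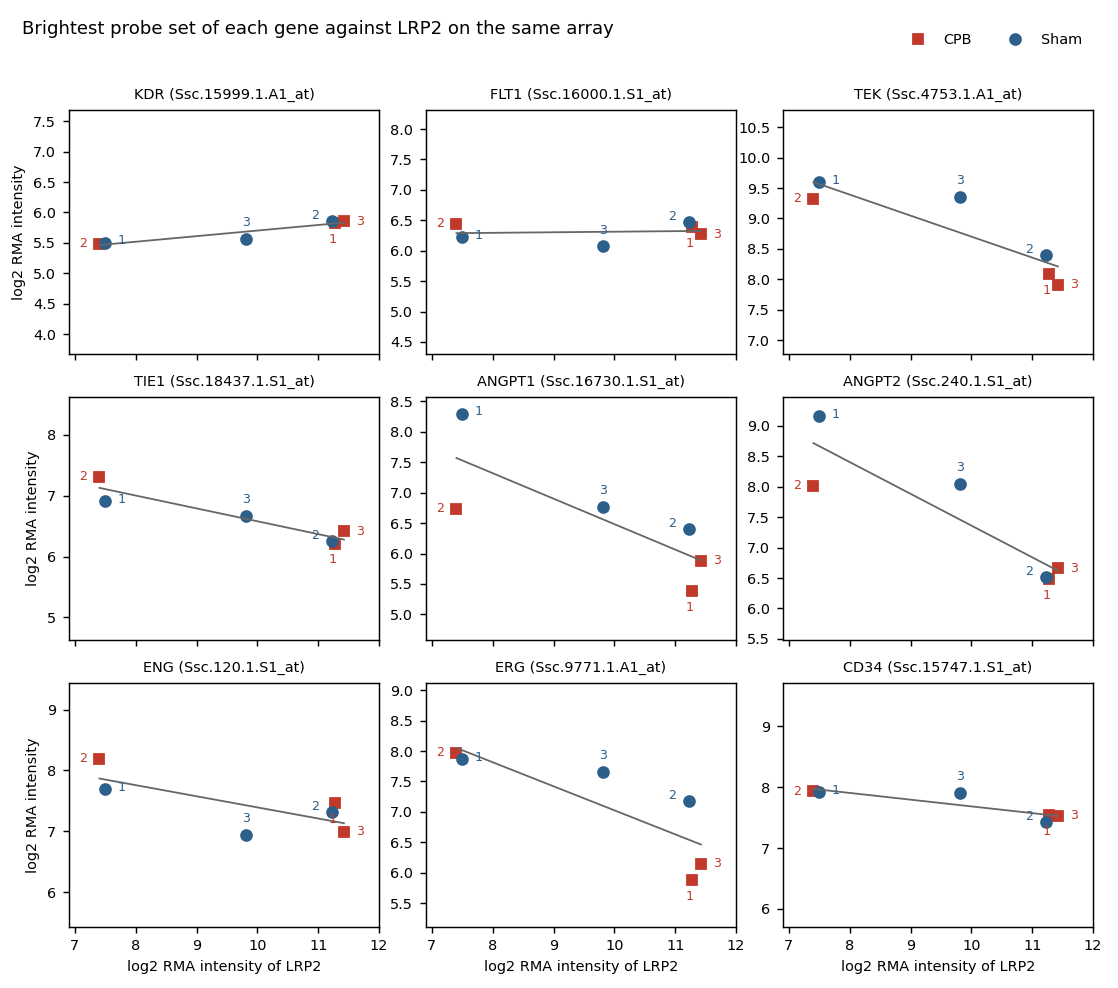
Log2 RMA intensity of the brightest probe set of each gene against log2 intensity of LRP2 on the same array, CPB as red squares and Sham as blue circles, with the animal's number beside each point and the fitted slope as a line. Every vertical axis spans 4 log2 units. ANGPT2, TEK and TIE1 decline towards the right, KDR and FLT1 are nearly level, and ERG and ANGPT1 of CPB 1 and CPB 3 lie below Sham 2 at a similar LRP2.

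Arrays of similar LRP2 can be set side by side across the groups, as single values with no test. At the lowest LRP2, CPB 2 had about the same KDR, CD34 and ERG as Sham 1 (44.7 and 45.3, 245 and 242, 250 and 233). The same array had less ANGPT1 on both probe sets (107 against 315, and 48.6 against 125), less ANGPT2 (260 against 571) and less TEK on Ssc.4753.1.A1_at (642 against 776) than Sham 1, and more TIE1 (159 against 121) and ENG (292 against 208). At the highest LRP2, CPB 1 and CPB 3 had 58.6 and 70.9 of ERG against 146 in Sham 2, and 41.6 and 59.0 of ANGPT1 on Ssc.16730.1.S1_at against 84.8. The second ANGPT1 probe set was 31.1 and 35.3 in these CPB arrays against 35.2 in Sham 2. TEK was 272 and 241 in these CPB arrays against 337 in Sham 2. ANGPT2 (89.7 and 101 against 91.2) and TIE1 (74.1 and 85.6 against 76.3) lay on both sides of Sham 2. On their brightest probe sets ANGPT1 and TEK were thus lower in CPB at both ends of the LRP2 range, whereas ERG was lower at the high end.

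With LRP2 as a covariate in the comparison of CPB with Sham, ANGPT1 on Ssc.16730.1.S1_at differed by -0.96 (SE 0.26, 95% CI -1.59 to -0.33, unadjusted p = 0.0095), and ERG by -0.72 (SE 0.27, 95% CI -1.37 to -0.066, unadjusted p = 0.036). Both then reached the threshold, which made 2 of the 15 probe sets, against 0.338% of all probe sets that met it with a lower level in CPB. Neither passed adjustment (adjusted p = 0.96 each, with 0 probe sets past it on the array). TEK on Ssc.4753.1.A1_at differed by -0.51 (unadjusted p = 0.028), under the fold limit, and ANGPT2 by -0.59 (unadjusted p = 0.088). The second ANGPT1 probe set differed by -0.50 (SE 0.29). Differences of KDR (0.033), CD34 (-0.026), TIE1 (0.15) and ENG (0.33) did not meet it. With the mean of the proximal tubule markers as the covariate in place of LRP2, ANGPT1 kept its call at -0.75 (unadjusted p = 0.030) and ERG did not, at -0.52 (unadjusted p = 0.14).

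Whether the slope on LRP2 differed between the groups was tested with an interaction term, added after the data had been seen. The slope in CPB minus that in Sham was 0.36 for the second ANGPT1 probe set (unadjusted p = 0.010), 0.32 for ANGPT2 (unadjusted p = 0.048) and -0.32 for ERG (unadjusted p = 0.020). These are 3 of the 15 probe sets, against 3.61% of all probe sets at that limit. After adjustment over all probe sets none of the 15 differed (adjusted p of 0.996 or above). The other 12 had an unadjusted p over 0.05.

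The ligands that act on these receptors were compared next. VEGFA, the growth factor bound by KDR and FLT1, is on 4 probe sets. On the brightest (Ssc.10015.1.A1_at) it read 648, 521 and 614 in CPB and 687, 658 and 802 in Sham. Every CPB array was below every Sham array there, yet the difference was small (-0.27, SE 0.14, unadjusted p = 0.11), and Ssc.15740.1.S2_at went the other way by value, at 0.16 (SE 0.20). The slope of VEGFA on LRP2 passed narrowly on 1 probe set, Ssc.15740.2.S1_a_at, at 0.18 (SE 0.046, adjusted p = 0.04986), opposite in sign to those of TEK, TIE1 and ANGPT2. Its other probe sets did not pass, at 0.027 on the brightest, 0.096 on Ssc.15740.1.S2_at and 0.0018 on Ssc.15740.2.A1_at. VEGFB, a ligand of FLT1, had a slope of -0.13 (adjusted p = 0.11). Of 5 measured co-receptor and signalling genes, 0 met the threshold between CPB and Sham, and FYN, a kinase of the Src family, passed with a negative slope (-0.31, adjusted p = 0.025). PLCG1, a phospholipase activated by KDR, had the smallest p of these between the groups (-0.27, SE 0.19). ANGPTL4, which resembles the angiopoietins in structure but inhibits lipoprotein lipase, read 593, 515 and 689 in CPB and 381, 495 and 351 in Sham. All CPB arrays exceeded all Sham arrays, and the difference was 0.56 (SE 0.18, 95% CI 0.11 to 1.00, unadjusted p = 0.023), short of 1.6-fold.

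Genes downstream of the receptors were described by list, with the brightest probe set of each gene. Over all probe sets 44.1% had a lower mean in CPB and 6.28% a negative slope past the limit. Genes of a list can vary together over the 6 arrays, so their counts are descriptions. In the endoglin and ALK1 pathway 9 of 10 genes had a lower mean in CPB (median difference -0.23), and 0 met the threshold. ID3, a target gene of that pathway, had the smallest p (-0.58, SE 0.28), with 641, 806 and 471 in CPB and 1200.4, 689 and 980 in Sham. Slopes on LRP2 passed for 3 of the 10, all negative: TGFB1, a ligand of the family, at -0.26 (adjusted p = 0.0079), SMAD1, which carries its signal to the nucleus, at -0.28 (adjusted p = 0.020), and the ligand TGFB3 at -0.25 (adjusted p = 0.027). SMAD1 and TGFB3 were named after their values had been seen. Among 8 other endothelial transcription factors, 0 met the threshold and 2 had a negative slope past the limit, LMO2 (-0.40, adjusted p = 0.030), a partner of blood and endothelial factors, and KLF4 (-0.43, adjusted p = 0.042), a factor induced by laminar flow that was named after its value had been seen. EPAS1, which encodes an oxygen-sensitive factor, had the smallest p of that list between the groups (-0.35, SE 0.18) and a slope of 0.0071. Of 11 Notch and tip cell genes 10 had a lower mean in CPB (median -0.23), 0 met the threshold, and 2 passed with a negative slope, the Notch ligand JAG1 (-0.20, adjusted p = 0.040) and RAMP2 (-0.26, adjusted p = 0.046), named after its value had been seen. CALCRL, the receptor with which RAMP2 pairs to bind adrenomedullin, had 11.9, 14.3 and 14.7 in CPB and 18.3, 15.4 and 33.2 in Sham, all at the dim end of the array.

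**Figure D4:**
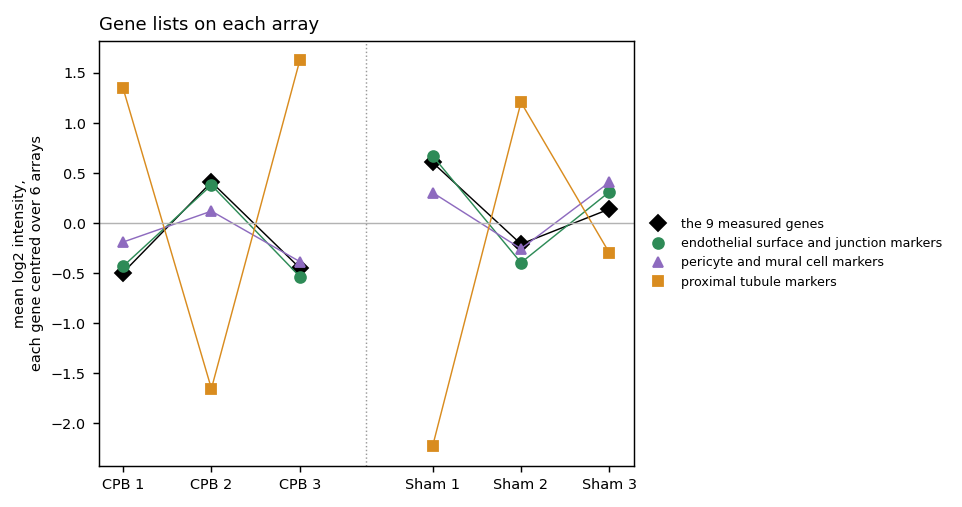
Mean over each of 4 lists of log2 intensity, with each gene centred over the 6 arrays, for the 9 measured genes (black diamonds), 20 endothelial surface and junction markers (green circles), 7 pericyte and mural cell markers (purple triangles) and 15 proximal tubule markers (orange squares), with CPB left of Sham. The black and green points lie close together on every array, highest at 0.61 and 0.67 in Sham 1, where the orange point is lowest at -2.23.

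General markers of endothelium moved with the mean of the 9 genes. KDR and FLT1, on probe sets of low or middling brightness, had slopes on LRP2 of 0.092 and 0.0092 on the brightest, neither past the limit. Of 20 endothelial markers 19 had a negative slope, yet some lay near 0 as well. Among these were SELP (-0.0014), ECSCR (-0.042) and RAMP3 (0.052), named after their values had been seen. The mean centred log2 intensity of the 9 genes was -0.50, 0.41 and -0.45 in CPB and 0.61, -0.21 and 0.14 in Sham. That of 20 endothelial surface and junction markers was -0.43, 0.38 and -0.54 in CPB and 0.67, -0.40 and 0.31 in Sham, so CPB 2 and Sham 1 were the highest of both lists. The median slope on LRP2 was -0.21 over the 9 genes, with the brightest probe set of each, and -0.24 over the 20 markers. Of these markers 7 passed with a negative slope, against 6.28% of all probe sets, and 0 with a positive one, against 5.11%. NOS3, the endothelial nitric oxide synthase, had the smallest p (-0.26, SE 0.038, adjusted p = 0.0096). PECAM1, an adhesion molecule of endothelial junctions, was the only one of the 20 at the threshold between the groups, with 533, 752 and 427 in CPB and 1232, 708 and 927 in Sham (-0.75, SE 0.29, unadjusted p = 0.040, adjusted p = 0.99). Its other probe set read 250, 307 and 221 in CPB and 518, 333 and 458 in Sham, with no overlap, and differed by -0.74 (SE 0.21, unadjusted p = 0.013). PECAM1 thus separated the groups more clearly than any of the 9 genes, by unadjusted p, and with LRP2 as a covariate its difference was -0.65 (SE 0.13, unadjusted p = 0.0025), which is under the fold limit. How much of the values of ANGPT1, TEK and ERG went with overall endothelial content was not tested.

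Markers of other cells that the blocks could hold are given beside these values. The 7 pericyte and mural cell markers had means of -0.19, 0.12 and -0.39 in CPB and 0.30, -0.26 and 0.41 in Sham. RGS5, a pericyte gene, had 131, 159 and 114 in CPB and 486, 119 and 821 in Sham (-1.44, SE 0.69, unadjusted p = 0.082), high in 2 of the Sham arrays alone. Slopes passed for ACTA2 (-0.55, adjusted p = 0.0074) and TAGLN (-0.45, adjusted p = 0.0084), contractile genes named after their values had been seen, and for ANPEP at 0.73, a gene that the proximal tubule list also holds.

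The tubule lists followed LRP2 in different ways. All 14 proximal tubule genes tested besides LRP2 passed with a positive slope (median over them 0.92), with the smallest p for the amino acid transporter SLC7A9 at 1.25, and GGT1, a brush border enzyme, had the smallest p of the list between CPB and Sham (1.27, SE 0.80). Of the list of vasa recta and medullary vessel markers 2 genes were measured, AQP1 and CRYAB, neither specific to vessels, and 1 passed for slope. CRYAB, a chaperone abundant in the inner medulla, had 420.0, 3560 and 624 in CPB and 3364, 660 and 2220 in Sham (slope -0.68, adjusted p = 0.0096), low where LRP2 was high. Of 5 thick ascending limb markers none passed for slope, with KCNJ1, a potassium channel, nearest at -0.26 (SE 0.075), and PTGER3, a prostaglandin receptor, nearest between the groups (-0.54, SE 0.36). Of 7 collecting duct markers 2 passed with a negative slope, AQP3, a water channel (-0.56, SE 0.048), and the transcription factor GATA3, and 1 with a positive one, the proton pump subunit ATP6V0D2. GATA3 and ATP6V0D2 were named after their values had been seen. AQP3 had the smallest p for slope, and the sodium channel subunit SCNN1A that between the groups (0.23, SE 0.15).

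Cells from outside the tubules differed by animal. The 5 urothelium markers had means of -0.82, 0.67 and -0.88 in CPB and 0.46, -0.95 and 1.53 in Sham, highest in Sham 3. UPK1B, a urothelial plaque protein, read 35.3, 116 and 28.4 in CPB and 207, 33.4 and 1208 in Sham, and UPK3A, another, was the 1 of the 5 that passed for slope (-0.87, SE 0.17). The 9 leukocyte and blood markers ranged from -0.16 to 0.26, with CD3E of T cells at 59.9, 296 and 61.6 in CPB and 187, 65.8 and 99.8 in Sham (slope -0.50, adjusted p = 0.0034). ITGAM, an integrin of myeloid cells, was nearest to a difference between the groups in that list (0.30, SE 0.12) and was among the dimmest 25% of the array. The 1 podocyte marker measured, WT1, had a slope of 0.14 (SE 0.037). Of 3 lymphatic markers none passed for slope, with CCL21, a chemokine, at 0.20 (SE 0.15) between the groups and PDPN, podoplanin, at a slope of 0.11 (SE 0.030). Of all the tubule, urothelium, podocyte, leukocyte and lymphatic markers, 0 reached the threshold between CPB and Sham. The part of any of these cells in the values of the 9 genes was not tested.

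Among probe sets of the commonly used reference genes GAPDH and ACTB, only Ssc.1035.1.S1_at had a called slope on LRP2. GAPDH, a glycolytic enzyme, had -0.045 (adjusted p = 0.47) on its brightest probe set, but -0.56 (adjusted p = 0.013) on Ssc.1035.1.S1_at, close to that of ANGPT2. The other GAPDH probe sets had -0.055, 0.063 and 0.030 and did not pass. ACTB, the cytoskeletal actin, had -0.13 (adjusted p = 0.051) on its brightest probe set and 0.16 (adjusted p = 0.059) on its other one. Between CPB and Sham the brightest probe sets of GAPDH and ACTB differed by 0.19 (SE 0.12) and -0.041 (SE 0.22).

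Of 6756 other genes with a probe set of 1 symbol, those whose log2 intensity followed the mean of the 9 genes most closely over the 6 arrays were HOXA3 (r = 0.994), ZDHHC14 (0.992), SEPT7 (0.990), TSTD1 (0.988) and RHOA (0.988). They are listed as a description of 6 arrays that share their tissue differences. RHOA, a small GTPase of the cytoskeleton, read 809, 1119 and 798 in CPB and 1234, 840.4 and 1047 in Sham.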

How the data were processed

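Total RNA from renal medulla of 3 CPB and 3 Sham pigs was hybridised to Affymetrix porcine arrays, 1 per animal. The authors scanned with GCOS and applied RMA (background correction, quantile normalization, median polish) in ArrayStar, and the submitters' notes also name RMA. The deposited values are linear intensities of 24123 probe sets. The scanner files themselves were not used. Signal over background is therefore not known, and quantile normalization makes each value relative to the rest of its array. The number of arrays limits the precision.

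The 124 control probe sets were left out and log2 was taken. Probe sets were named from an annotation of 10297 probe sets, 10099 with 1 symbol. With limma 3.58.1 in R 4.3.3 (lmFit, eBayes), CPB was compared with Sham over 23999 probe sets, and a slope on log2 intensity of the brightest LRP2 probe set was fitted over 23997, with Benjamini-Hochberg adjustment over all of them. For CPB against Sham the study's threshold was applied, and for the slope an adjusted p under 0.05. No sequences or coordinates are given. In simulated data with 200 changed probe sets, 87% of 2-fold changes met the study's threshold, as did 409 unchanged ones. In the data themselves 73 probe sets met it. The simulated noise was drawn independently for each probe set, whereas the arrays shared tissue differences. The 87% is an average over probe sets drawn at random, and power was not estimated for widely spread members such as ANGPT2 (SE 0.74). Of simulated slopes of 0.3, 65% were found, with 13 false calls.

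The genes, lists, tests and alternatives were chosen with earlier results of these data known. Genes named are the members, LRP2, PECAM1, VEGFA, GAPDH, ACTB, the 5 most similar genes and, per list, those with the smallest p in each fit, with exceptions stated. The PCR and blot measurements of the study were not analysed.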

Additional observations from a re-analysis of the deposited data

How the results depend on the processing

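Probe sets at the study's threshold numbered 73, but 30 with the methods' t-test, 166 with LRP2 as a covariate, 2116 with array weights, which did not converge, and 333 with CPB 2 and Sham 1 left out, a setting chosen after seeing the data. Leaving out 1 array gave 52 to 701, with 693 without CPB 2 and 701 without Sham 2. The median difference of the 15 probe sets was -0.30 with array weights and -0.37 without the dimmest 25% of probe sets, against -0.091. Probe sets with a called LRP2 slope numbered 2732, and 846 to 3947 with 1 array left out. The median slope of the 15 was -0.20 without the dimmest 25% and -0.23 with CPB 2 and Sham 1 left out, against -0.11. The cause of these shifts was not tested, apart from fewer arrays or probe sets in each fit. Arrays of the same replicate number did not deviate alike from their group means (correlations -0.389, -0.681 and -0.0163). Deviations were most alike for CPB 2 and Sham 1, both low in LRP2 (0.705), so this check cannot exclude a pairing by number. With the number as a replicate block 76 probe sets met the threshold, among them TEK on Ssc.15902.1.S1_at (unadjusted p = 0.040 with limma). Over the 15 probe sets and all alternatives, 16 comparisons of CPB with Sham gained a call and 236 kept their side of the threshold, 23 of these with a changed sign, the farthest from 0 for TIE1, at -0.43 with array weights and -0.29 without CPB 2. For the slope, 14 lost a call, 11 gained one and 182 kept their side, 12 with a changed sign. Array weights gave a call to both ANGPT1 probe sets, ANGPT2, ERG and the 2 brighter TEK probe sets. A trend and robust prior, a second quantile normalization, median centring and kept control probe sets changed no call among the 15.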
